A study of Mus musculus with 6 samples.

Results

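Matrix metalloproteases (MMPs), ADAM and ADAMTS proteases and the tissue inhibitors of metalloproteases (TIMPs) were followed in the submandibular gland, a major salivary gland, of female mice. The genes were taken from the filtered count table by symbol alone, as every Mmp, Adam or Adamts symbol followed by a number (with at most 1 further letter for Mmp and Adam) and as Timp1 to Timp4. This gave 48 of the 17527 rows, namely 13 MMPs, 15 ADAMs, 17 ADAMTSs and 3 TIMPs. The series compared 3 glands labelled wild type (WT) with 3 labelled Hs3st3a1;3b1 DKO, to learn which transcripts change when both Hs3st3 genes, which encode heparan sulfate 3-O-sulfotransferases, are disrupted. The study describes adult mice on a C57BL/6 background with WT littermates as controls. The DKO mice carry a frameshift deletion in exon 1 of Hs3st3a1, made with zinc finger nucleases, in mice that already carried a LacZ cassette in Hs3st3b1, and both alleles are constitutive, so every cell type of the gland carries them. The titles carry the numbers 1, 4 and 5 for either genotype and do not say whether each came from 1 animal, so p-values measure the spread between these libraries.

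The proteases of these families hold a zinc ion in the active site. MMPs are made as inactive precursors and, once activated, cut collagens, laminins and other matrix proteins, and some of them are anchored in the cell membrane. ADAMs sit in the membrane and release the outer parts of growth factors, receptors and adhesion proteins, while ADAMTSs are secreted and cut procollagens and proteoglycans such as versican. TIMPs bind the active site, and Timp3, unlike the other TIMPs, is held in the matrix through sulfated sugar chains. In the salivary gland this system is known for the turnover of basement membrane as the epithelium branches.

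Most of these genes had lower values in the libraries labelled DKO, and few passed the test. Over all 18606 rows with at least 10 counts in total, DESeq2 (Wald test, Benjamini-Hochberg adjustment over all rows) called 2 of the 48 genes lower and 0 higher at an adjusted p under 0.05, where 1.88% of all rows were called lower and 1.02% higher. The genes called were Timp3 and Adam8. At an unadjusted p under 0.05 there were 12 of the 48 lower and 0 higher, against 7.26% and 4.92% of all rows. Every library labelled DKO lay below every library labelled WT for 9 of the 48 genes (10.5% of all rows), and the opposite held for 0 of them (9.85% of all rows). The log2 fold change, DKO over WT throughout, was negative for 40 of the 48 genes (49.8% of all rows), with a median of -0.29 against 0.00 for all rows. The edgeR quasi-likelihood test and limma-voom each called 0 of the 48 genes, so the 2 calls rest on DESeq2. Over all 18606 rows edgeR called only 10 genes and limma-voom 7. At an unadjusted p under 0.05 edgeR had 12 of the 48 genes and limma-voom 10, against 2789 and 2609 of the 18606 rows.

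The catalytic site is what the proteases share, and it is shown here at the level of the coding sequence because it divides the families. In the GENCODE M21 annotation of GRCm38, codons for the zinc-binding site, in the order histidine, glutamate, histidine, glycine, histidine with the standard spacing, were found in 13 of 13 MMPs and 10 of 15 ADAMs. Among the 17 ADAMTSs 11 had this form, 5 had an asparagine codon in place of the glycine codon, and for Adamts8 neither form was found in the annotated coding sequence. The 3 TIMPs, which are not proteases, had neither. Each stretch has 33 bases, reads 5′ to 3′ on the coding strand, and has the codons of those 5 residues in capitals. The genes shown are 8 of the 10 proteases with an unadjusted p under 0.05 (all but Mmp3 and Adamts6), Mmp15 as the most abundant MMP, and Adamts15 as an example of the asparagine form.
Mmp2: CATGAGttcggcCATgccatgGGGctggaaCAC
Mmp9: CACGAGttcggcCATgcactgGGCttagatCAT
Mmp15: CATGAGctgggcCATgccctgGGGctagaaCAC
Adam8: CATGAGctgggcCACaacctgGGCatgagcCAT
Adam19: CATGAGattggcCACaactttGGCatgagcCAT
Adam28: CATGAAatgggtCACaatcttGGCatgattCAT
Adam10: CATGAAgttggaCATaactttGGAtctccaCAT
Adamts3: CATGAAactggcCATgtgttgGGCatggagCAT
Adamts5: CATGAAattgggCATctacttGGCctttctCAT
Adamts15: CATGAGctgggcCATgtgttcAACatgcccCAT
These stretches are coding exon sequence at chr8:92839279-92839311 (plus strand), chr2:164951133-164951165 (plus), chr8:95368585-95368617 (plus), chr7:139987893-139987925 (minus), chr11:46125050-46125082 (plus) and chr14:68633167-68633199 (minus). In Adam10 (chr9:70754296-70761585, plus), Adamts3 (chr5:89707433-89707818, minus), Adamts5 (chr16:85878015-85887826, minus) and Adamts15 (chr9:30911255-30911690, minus) the stretch is interrupted by an intron, so the coordinates span more than its bases.

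Promoters in the RefSeq table for GRCm38.p6, each from 250 bases before to 50 after a gene's start, were matched for 28 of the 48 genes, which have 32 such windows. A GC box (GGGCGG, either strand) was present in 21 of the 32, against 35.7% of all 32851 promoters in that table, and a TATA box (TATAAA, either strand) in 3 of the 32, against 13.6%. The windows had a median GC content of 64.2% and 19 CpG dinucleotides, compared with 52.7% and 7 over all promoters. The promoters of the 2 called genes and of Timp2 are printed with GC boxes in capitals. A match describes the letters only.
Timp3: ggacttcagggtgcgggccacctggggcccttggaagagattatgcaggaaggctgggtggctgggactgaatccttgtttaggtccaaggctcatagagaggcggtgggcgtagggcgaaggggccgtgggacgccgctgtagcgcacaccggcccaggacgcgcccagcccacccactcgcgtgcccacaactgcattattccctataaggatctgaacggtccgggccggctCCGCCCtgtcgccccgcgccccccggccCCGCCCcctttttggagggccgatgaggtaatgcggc
Timp2: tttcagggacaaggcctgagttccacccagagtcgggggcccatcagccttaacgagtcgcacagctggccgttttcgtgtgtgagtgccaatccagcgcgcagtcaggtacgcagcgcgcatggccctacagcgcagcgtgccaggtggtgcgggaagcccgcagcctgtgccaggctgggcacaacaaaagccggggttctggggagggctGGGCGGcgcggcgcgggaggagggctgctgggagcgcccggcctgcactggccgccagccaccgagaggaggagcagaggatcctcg
Adam8: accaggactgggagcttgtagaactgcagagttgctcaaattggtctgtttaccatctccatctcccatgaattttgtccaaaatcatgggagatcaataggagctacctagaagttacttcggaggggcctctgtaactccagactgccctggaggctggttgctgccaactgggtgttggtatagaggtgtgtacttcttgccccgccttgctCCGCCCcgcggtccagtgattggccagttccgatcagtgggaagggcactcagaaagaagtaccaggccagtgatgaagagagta
The window of Timp3 (chr10:86300162-86300461, plus strand) had 24 CpG and that of Timp2 (chr11:118355362-118355661, minus) had 25, while that of Adam8 (chr7:139992513-139992812, minus) had 6 and a GC content of 52.3%, near the median of all promoters.

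Levels were compared between genes only per length, as normalized counts per kb of exon. Timp2 was the most abundant at 390 per kb as a mean over the 6 libraries, followed by Adam9 at 296, Timp3 at 264, Adam10 at 221 and Mmp15 at 175. Of these neighbours, Adam9 (271 to 316 per kb) and Timp3 (196 to 373) overlapped across libraries, as did Timp3 and Adam10 (184 to 255), and Adam10 and Mmp15 (144 to 206). Lengths include exon bases shared with another gene, which make up 21.3% of Timp3. How reads of shared bases were counted is not known, so the place of Timp3 in this order is uncertain. In every library Timp2 was above the other 47 genes, the closest being Timp3 and Adam9. The next group held Mmp2 (97.9 per kb), the procollagen-processing Adamts2 (81.6), Adam15 (93.8), Adam17 (66.0) and Adamts10 (62.6). At the other end, Adamts16 and Adamts8 averaged 0.377 and 0.765 per kb, with a raw count of 0 in 1 library each. The ADAMs held 36.3% of the summed level per kb of all 48 genes, the TIMPs 30.5%, the MMPs 18.3% and the ADAMTSs 14.9%. All 48 genes together took between 0.0355% and 0.0617% of the counts of a library, so their values rest on a small part of 23674258 to 29611975 counts per library.

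**Figure D1:**
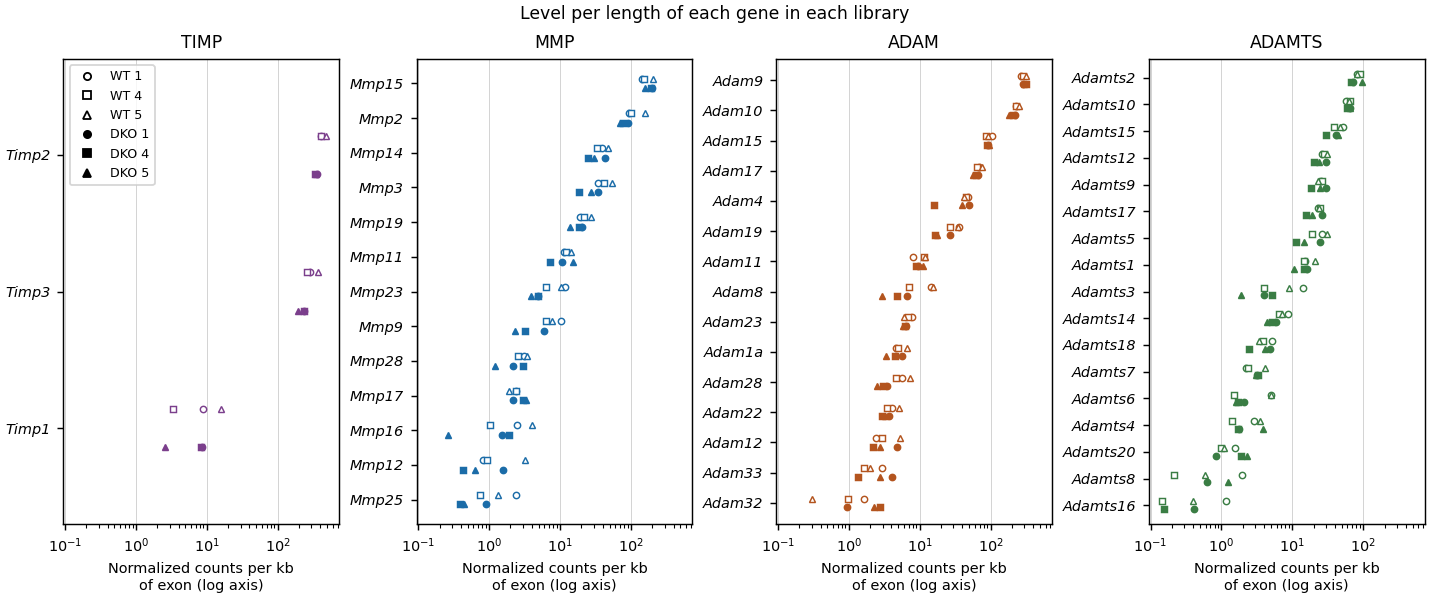
Normalized counts per kb of exon (x axis, log scale) for each of the 48 genes in each of the 6 libraries, by family, with open symbols for WT and filled symbols for DKO. Timp2, Adam9, Timp3, Adam10 and Mmp15 lead, at means of 390 to 175 per kb, and the values of 0 for Adamts8 in DKO 4 and Adamts16 in DKO 5 are not drawn.

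Of the inhibitors, Timp3 was lower in the glands labelled DKO. Timp3 (chromosome 10, 86300372 to 86349506, plus strand) had 2332, 2129 and 3036 normalized counts in libraries WT 1, 4 and 5 and 1903, 1902 and 1598 in DKO 1, 4 and 5. All 3 DKO values lay below all 3 WT values, and the mean fell from 2499 ± 476 to 1801 ± 176 (SD, n = 3). The log2 fold change was -0.47 (SE 0.14, adjusted p = 0.0332 in DESeq2), a ratio of 0.721. Of the 6 fits that each left out 1 library, only the one without WT 4 called Timp3. Without WT 5, its highest library, the log2 fold change was -0.31 and the adjusted p 0.383. Timp3 lies inside Syn3, a gene of the opposite strand, and 21.3% of its exon bases are shared with exons of Syn3. The libraries were unstranded, so reads of the shared bases cannot be assigned by strand, but the row for Syn3 held only 31 to 62 counts per library and had a log2 fold change of 0.36 (adjusted p = 0.780 in DESeq2).

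Timp2, the inhibitor that also takes part in the activation of the Mmp2 precursor by Mmp14, had the same order of groups. Its normalized counts were 1578, 1577 and 1905 in WT 1, 4 and 5 and 1390, 1300 and 1371 in DKO 1, 4 and 5. The groups did not overlap, and the DKO libraries were close to each other (1354 ± 47.2, SD, n = 3). The log2 fold change of -0.32 (SE 0.11) did not pass the adjustment (adjusted p = 0.0881 in DESeq2). Timp1, an inducible inhibitor, was scarce at 7.92, 2.93 and 14.3 against 7.59, 7.32 and 2.31 normalized counts, too few to tell the groups apart (log2 fold change -0.54, SE 0.89). Timp4 had at most 3 counts in a library and was not in the filtered table. Summed per kb, the 3 TIMPs ranged from 669 to 878 in the WT libraries and from 551 to 599 in the DKO libraries.

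Among the MMPs 11 of 13 had a negative log2 fold change, with a median of -0.55, 3 had an unadjusted p under 0.05, and 0 were called by DESeq2, edgeR or limma-voom. The gelatinases, which cut denatured collagen and type IV collagen of the basement membrane, were both lower in every DKO library than in any WT library. Mmp2 (chromosome 8, 92827291 to 92853420, plus strand) had 321, 333 and 525 normalized counts in libraries WT 1, 4 and 5 and 302, 263 and 238 in DKO 1, 4 and 5. WT 5 stood far above the other WT libraries, and DKO 1 was only slightly below WT 1. Its log2 fold change was -0.55 (SE 0.21, adjusted p = 0.122 in DESeq2), and -0.28 without WT 5. Mmp9, the gelatinase of neutrophils and macrophages, had 36.6, 22.5 and 26.9 against 20.9, 11.5 and 8.07 normalized counts, with a log2 fold change of -1.07 (SE 0.52, adjusted p = 0.322 in DESeq2). Mmp3, stromelysin 1, which cuts proteoglycans and laminin and activates other MMPs, had 61.4, 74.3 and 96.7 against 61.7, 33.4 and 49.6. DKO 1 and WT 1 had nearly the same value, and the log2 fold change of -0.68 (SE 0.33) had an adjusted p of 0.308 in DESeq2.

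The membrane-type MMPs did not share a direction. Mmp14, the collagenase of the cell surface that activates Mmp2, had 230, 199 and 283 normalized counts in libraries WT 1, 4 and 5 and 253, 146 and 180 in DKO 1, 4 and 5. The groups overlapped, since DKO 1 was above WT 1 and WT 4, and the log2 fold change was -0.29 (SE 0.23, 95% interval -0.74 to 0.15). Mmp15, a close relative of Mmp14, had 777, 818 and 1111 against 1074, 1020 and 866, so its groups overlapped as well. Its log2 fold change of 0.13 (SE 0.15) had an interval of -0.17 to 0.43, and the sign turned to -0.10 with total counts as size factors. Mmp16, Mmp17 and Mmp25 averaged under 22 normalized counts in either group, with log2 fold changes of -1.01, 0.34 and -1.37 and SEs of 0.52 to 0.97. Of the other secreted MMPs, Mmp23, which is released from the membrane, had 27.7, 14.7 and 24.2 against 11.4, 11.5 and 9.22 normalized counts, without overlap (log2 fold change -1.05, SE 0.55, adjusted p = 0.385 in DESeq2).

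Of the MMP cluster on chromosome 9, Mmp3 and the macrophage elastase Mmp12 (3.14 to 23.3 normalized counts) were in the filtered table. The other MMP genes left out of it, 10 in number and including the collagenases Mmp8 and Mmp13 and the matrilysin Mmp7, had at most 4 counts in a library. Mmp7 was the only one of the 10 with enough counts to be tested, with 1, 0 and 2 raw counts in the WT libraries and 4 in each DKO library, and it had an unadjusted DESeq2 p of 0.135 and no adjusted p.

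**Figure D2:**
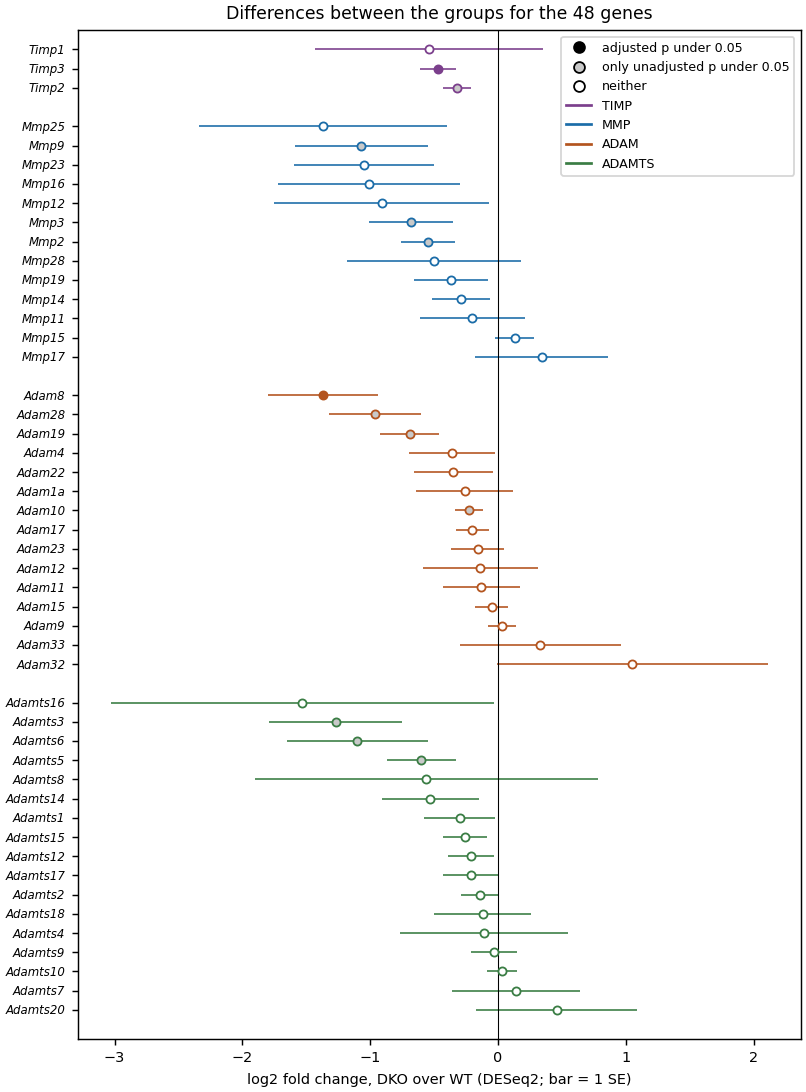
The log2 fold change of DKO over WT from DESeq2 for each of the 48 genes (x axis, with a bar of 1 SE), by family. Filled points are Timp3 and Adam8, with an adjusted p under 0.05; grey points are the other 10 genes with an unadjusted p under 0.05, all of them to the left of 0.

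The ADAMs had a median log2 fold change of -0.20, and 1 of the 15 was called. Adam8 (chromosome 7, 139978932 to 139992562, minus strand), a protease found mainly on white blood cells, fell in the glands labelled DKO. It had 66.3, 33.3 and 72.5 normalized counts in libraries WT 1, 4 and 5 and 30.4, 21.9 and 13.8 in DKO 1, 4 and 5. The groups did not overlap, but WT 4 lay close to DKO 1. The mean went from 57.4 ± 21.1 to 22.0 ± 8.26 (SD, n = 3), a log2 fold change of -1.37 (SE 0.43, adjusted p = 0.0487 in DESeq2). The raw counts behind it were only 12 to 81 per library, and over the fits that each left out 1 library the adjusted p ranged from 0.00644 to 0.466, with a call only without WT 4 or DKO 1 and the highest value without WT 5.

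Adam19 and Adam28 followed without passing the adjustment. Adam19, which releases neuregulin, had 258, 192 and 251 normalized counts in libraries WT 1, 4 and 5 and 193, 117 and 125 in DKO 1, 4 and 5, with DKO 1 level with WT 4. Its log2 fold change was -0.69 (SE 0.23, adjusted p = 0.0666 in DESeq2), and it was -0.95 (adjusted p = 0.00228) without DKO 1. Adam28, first known from lymphocytes, had 52.4, 42.1 and 68.1 against 32.3, 28.2 and 23.1, without overlap (log2 fold change -0.96, SE 0.36, adjusted p = 0.133 in DESeq2).

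Adam10 and Adam17, the main sheddases for Notch, cadherins and growth factors of the EGF family and for tumour necrosis factor, differed little. Adam10 had 1121, 1134 and 1253 normalized counts in the WT libraries and 1075, 1016 and 906 in the DKO libraries. All 3 DKO values were lower, by 14.5% in the fit (log2 fold change -0.23, SE 0.11, adjusted p = 0.342 in DESeq2). Adam17 had 498, 466 and 551 against 470, 445 and 402, and its groups overlapped (log2 fold change -0.20, 95% interval -0.46 to 0.06). The intervals of Adam9 and Adam15, sheddases with broad expression, were -0.17 to 0.24 and -0.29 to 0.20. Adam9 had 1116, 1195 and 1302 against 1191, 1288 and 1224 normalized counts, and Adam15 had 650, 530 and 576 against 565, 552 and 585. In Adam15 20.6% of the exon bases are shared with an antisense gene, whose row had 3 to 6 counts per library.

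The 5 ADAMs in which no zinc site was found were Adam4, Adam11, Adam22, Adam23 and Adam32. Adam11, Adam22 and Adam23 act as adhesion proteins or receptors of the nervous system, and had 41.8 to 140 normalized counts with log2 fold changes of -0.13, -0.35 and -0.16 and SEs of 0.30, 0.31 and 0.21. Adam4 had 121, 112 and 105 against 123, 39.7 and 99.2, so that 1 library, DKO 4, was apart. Its single exon block lies inside introns of Cox16 and of a readthrough gene, and Cox16 had 94 raw counts in DKO 4 against 75 to 116 in the other libraries. The readthrough gene had 9 raw counts in DKO 4, its lowest value, against 16 to 31 in the other libraries. Of the 5 genes without the site 0 had an unadjusted p under 0.05, compared with 4 of the 10 with it, a description with no test. Adam1a is uncertain, because 63.7% of its exon bases are annotated to a second gene of the same strand. Another 18 Adam rows, most of them known from testis, were left out of the filtered table, 14 of them with 0 counts in all 6 libraries and none above 5. The highest of them was Adam21, with 2, 3 and 4 raw counts in WT and 5 in each DKO library, too few for an adjusted p.

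Of the 17 ADAMTSs 14 had a negative log2 fold change, with a median of -0.21, and 3 had an unadjusted p under 0.05. Adamts3, a procollagen N-proteinase that also activates the lymphatic growth factor VEGF-C, had 76.2, 21.5 and 48.4 normalized counts in libraries WT 1, 4 and 5 and 21.8, 28.2 and 10.4 in DKO 1, 4 and 5. The WT libraries were widely spread, and WT 4 was below both DKO 1 and DKO 4 (log2 fold change -1.27, SE 0.52, adjusted p = 0.186 in DESeq2). Adamts2, the most abundant enzyme of that class, had 773, 850 and 768 against 666, 628 and 884, with DKO 5 the highest of all (log2 fold change -0.14, 95% interval -0.42 to 0.15). Adamts14 completed the class at 45.5, 34.2 and 36.7 against 30.4, 27.2 and 23.1, without overlap but with few counts (log2 fold change -0.53, SE 0.38).

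Adamts5, an aggrecanase that also cuts versican, had 281, 202 and 334 normalized counts in the WT libraries and 261, 120 and 158 in the DKO libraries. DKO 1 was among the WT values and the other two were below them (log2 fold change -0.60, SE 0.27, adjusted p = 0.270 in DESeq2), and without DKO 1 the log2 fold change was -0.97 (adjusted p = 0.0127). Adamts15, the most abundant of this class, had 537, 404 and 488 against 427, 311 and 454 (log2 fold change -0.26, SE 0.17), and Adamts1, Adamts4, Adamts8, Adamts9 and Adamts20 had unadjusted p-values from 0.291 to 0.870. Adamts6, an enzyme acting on fibrillin microfibrils, had 39.6, 11.7 and 39.4 against 16.1, 13.6 and 12.7, where WT 4 was the lowest of all 6 (log2 fold change -1.10, SE 0.55, adjusted p = 0.355 in DESeq2). Its relative Adamts10 was level at 477, 541 and 514 against 545, 485 and 537 (log2 fold change 0.03, 95% interval -0.21 to 0.28). Adamts12, which cuts cartilage oligomeric matrix protein, had 285, 306 and 335 against 322, 222 and 257 (log2 fold change -0.21, SE 0.18). The 5 genes with the asparagine form of the zinc site had a median log2 fold change of -0.11 and the 11 with the glycine form one of -0.21, given as a description.

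**Figure D3:**
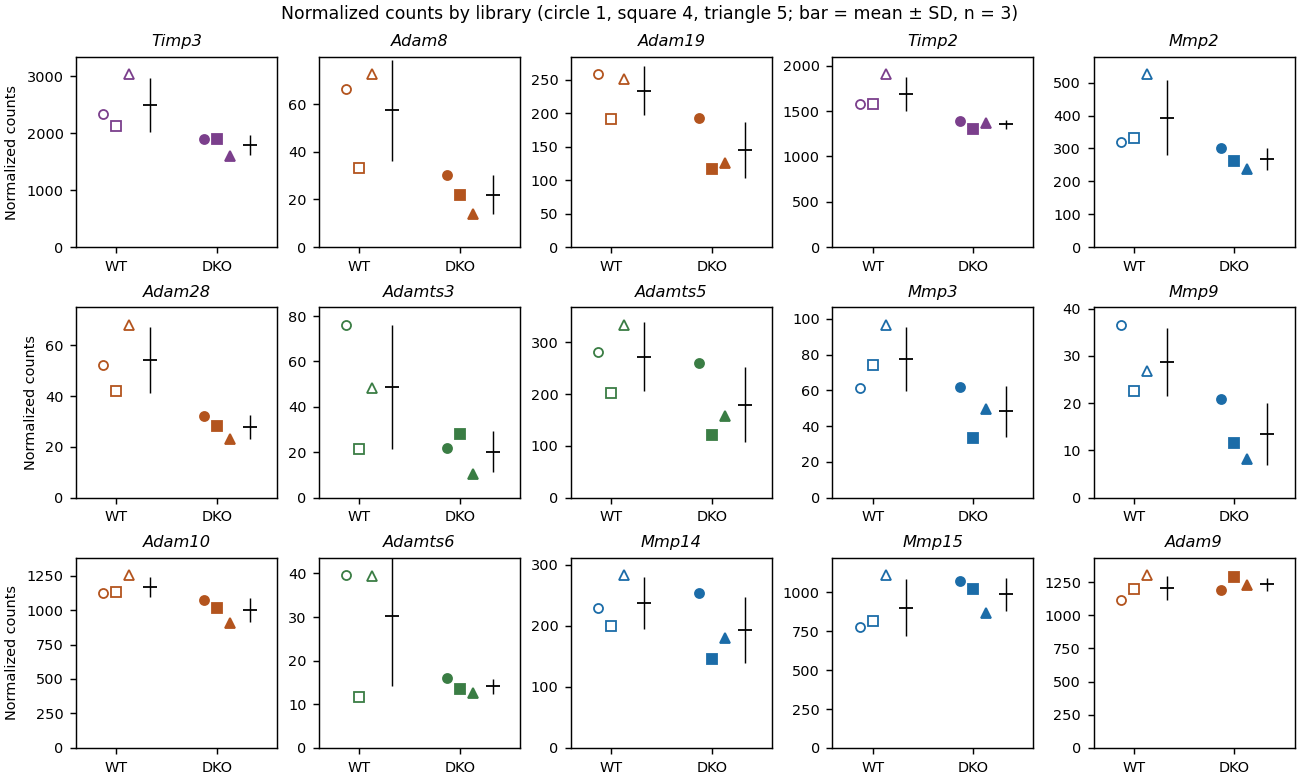
Normalized counts (y axis, from 0) in each library for the 12 genes with an unadjusted p under 0.05 and for Mmp14, Mmp15 and Adam9, with open symbols for WT, filled symbols for DKO and the mean ± SD of 3 libraries at the right of each group. WT 5 is the highest WT library for Timp3 (3036) and Mmp2 (525), and DKO 1 is the highest DKO library for Adam8 (30.4) and Adam19 (193).

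The libraries contributed unequally. For the 24 genes with a mean of at least 50 normalized counts, a limit set after the values were known, WT 5 was the highest WT library in 15 of 24 and DKO 1 the highest DKO library in 19 of 24. Over all 11489 rows at that level these shares were 26.4% and 31.1%. The median log2 difference of the 24 genes from the WT mean was -0.11 in DKO 1, -0.38 in DKO 4 and -0.30 in DKO 5, and it was -0.06, -0.09 and 0.12 in WT 1, 4 and 5. DKO 1 was thus almost level with the lower WT libraries, while over all rows these medians stayed between -0.01 and 0.03. Leaving out WT 4 gave 4 called genes (Adam8, Adam19, Adamts3 and Timp3) and leaving out DKO 1 gave 3 (Adam8, Adam19 and Adamts5), all lower, while leaving out any of the other libraries gave 0. Calls over all rows moved the same way, with 817 without WT 4 and 740 without DKO 1, against 149 to 170 without any other library.

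Genes that act on these proteases or are cut by them were compared next. In these lists edgeR and limma-voom called 0 genes, and the DESeq2 counts are to be read against the 1.88% of all rows called lower and 1.02% called higher. Of 26 activators and inhibitors, including furin-type convertases, plasminogen activators, serpins and the partners of Adam10 and Adam17, 22 were tested and DESeq2 called 0 of them, with 2 lower and 1 higher at an unadjusted p under 0.05 in DESeq2. The partners of Adam10, tetraspanins that carry it to the cell surface, had log2 fold changes of 0.36 for Tspan5, 0.13 for Tspan14, 0.31 for Tspan15, -0.21 for Tspan17 and -0.55 for Tspan33. For the iRhoms Rhbdf1 and Rhbdf2, which carry Adam17, they were -0.04 and -0.10. The convertase Furin, which activates many MMP and ADAM precursors, had 1931 ± 53.4 against 1853 ± 264 normalized counts (SD, n = 3). Of 14 ADAMTS-like proteins and other metalloproteases, 12 were tested and 1 was called, the membrane endopeptidase Mme, which fell from 1744 ± 159 to 1302 ± 34.6 (SD, n = 3; log2 fold change -0.42, SE 0.11, adjusted p = 0.00541 in DESeq2).

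Among 21 matrix proteins that these enzymes cut, 18 were tested and 2 were called, both lower. Fbn1, the fibrillin of microfibrils, had a log2 fold change of -0.70 (SE 0.20, adjusted p = 0.0228 in DESeq2), and the small proteoglycan Dcn one of -0.47 (SE 0.14, adjusted p = 0.0305 in DESeq2). The median of the 18 was -0.27, close to that of the 48 genes. Of 22 membrane proteins known to be shed by ADAMs, 20 were tested, with 3 called lower and 1 higher. Egf, a product of the granular ducts, fell from 64875 ± 5065 to 40079 ± 6834 normalized counts (SD, n = 3; log2 fold change -0.69, SE 0.13, adjusted p = 1.6e-05 in DESeq2 and 0.123 in edgeR). The stem cell factor Kitl (log2 fold change -0.83, SE 0.21, adjusted p = 0.00621 in DESeq2) and the interleukin receptor Il6ra (-1.44, SE 0.44, adjusted p = 0.0368 in DESeq2) fell as well. Notch1, the receptor processed by Adam10, rose from 1350 ± 31.8 to 1775 ± 54.6 (SD, n = 3; log2 fold change 0.40, SE 0.09, adjusted p = 0.00183 in DESeq2 and 0.123 in edgeR).

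Markers of several cell types moved with these genes in DESeq2, whose calls are given here, while edgeR and limma-voom called 0 genes of any marker list. In whole glands, fewer cells of a type and less RNA per cell cannot be told apart. All 7 fibroblast markers had negative log2 fold changes and 2 were called lower, Dcn and the receptor Pdgfra. Their summed normalized counts were 11182 to 15923 in the WT libraries and 8429 to 12003 in the DKO libraries. WT 5 was highest and DKO 1 the highest of its group. The same libraries led their groups in 15 (WT 5) and 19 (DKO 1) of the 24 genes with a mean of at least 50. Of the macrophage markers 3 of the 5 tested were called lower (1431 to 2330 against 1010 to 1411 summed), and Adgre1 was not analysed here. Of the 4 neutrophil markers only Csf3r passed the count limit, with a log2 fold change of -1.38 (SE 0.43, adjusted p = 0.0403 in DESeq2), and the summed level was 35.2 to 58.2 against 16.1 to 22.8. T cell markers were called lower in 4 of 5 (33.3 to 199 against 4.61 to 12.3 summed) with Cd8a at 0 counts in all 3 DKO libraries. Of the B and plasma cell markers (12.7 to 156 against 4.61 to 10.4 summed) 1 of the 4 tested, Ms4a1, was called lower. It had 60.4, 0.978 and 5.37 normalized counts in WT 1, 4 and 5 against 0, 1.05 and 1.15 in DKO 1, 4 and 5. Its groups overlapped, and WT 1 held most of its counts. Myoepithelial markers were called lower in 8 of 9 (11449 to 12315 against 6359 to 8267 summed). Of the smooth muscle and pericyte, endothelial and Schwann cell markers 0 were called, with 2 endothelial markers higher at an unadjusted p under 0.05. Of the acinar markers 2 of 5 were called higher, the water channel Aqp5 (log2 fold change 0.54, SE 0.15, adjusted p = 0.0165) and Agr2 (1.11, SE 0.18, adjusted p = 3.64e-07), and the median was 0.54. Smgc, which had been placed on the acinar list, went the other way, with a log2 fold change of -1.54 (SE 1.02, adjusted p = 0.571 in DESeq2). It varied from 18428 to 292306 normalized counts between libraries. Summed with Smgc, the acinar markers had 53861 to 318754 in the WT libraries and 51441 to 164344 in the DKO libraries. Duct markers summed to 207643 or more in each library, with 1 of 6 called lower (Egf), and the 4 adipocyte markers together reached at most 12.9. The part of these cell types in the lower values of Timp3, Adam8 and the other proteases was not tested.

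**Figure D4:**
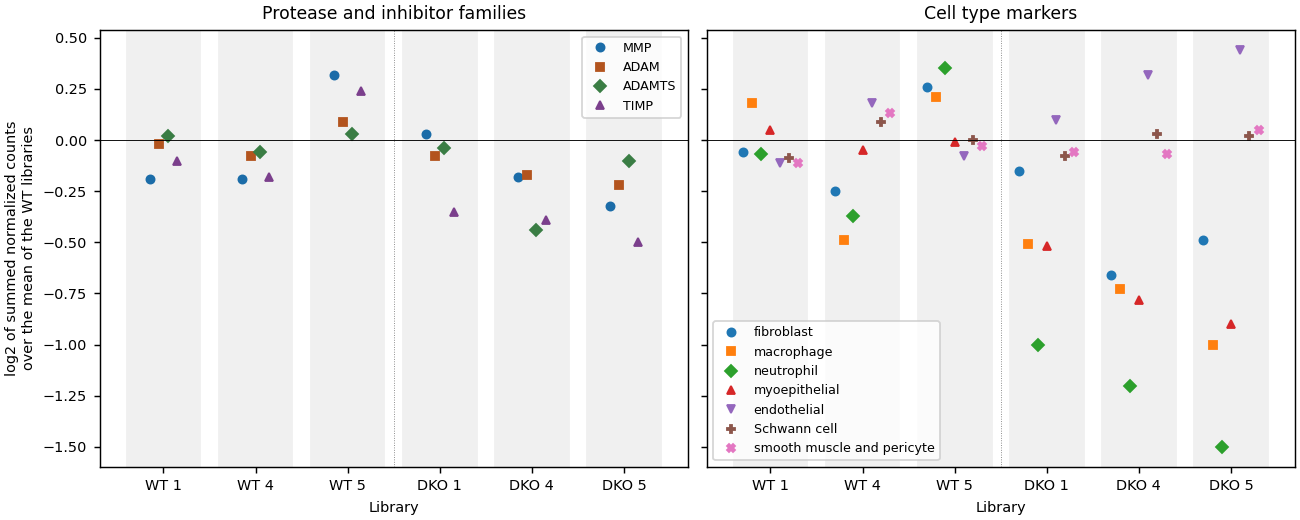
Summed normalized counts of each protease or inhibitor family (left) and of cell type marker lists (right) in each library, as the log2 ratio to the mean of the 3 WT libraries (y axis). TIMPs lie at -0.35 to -0.50 in the DKO libraries, fibroblast markers at -0.15 to -0.66 and macrophage markers at -0.51 or lower. WT 4 lies at -0.25 for fibroblast markers, where the groups overlap, and at -0.49 for macrophage markers, where they nearly touch. Schwann cell markers stay within -0.09 to 0.09 in all 6 libraries.

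The targeted genes did not separate the libraries by count, so the groups are named by their labels. The range for Hs3st3b1 was 173 to 261 raw counts in WT and 120 to 255 in DKO, and for Hs3st3a1 it was 8 to 15 in all libraries. The log2 fold changes in DESeq2 were -0.04 (SE 0.24) for Hs3st3b1 and -0.22 (SE 0.61) for Hs3st3a1. The counts per gene thus did not show the disruption of either gene, and the reason was not tested. Size factors ranged from 0.867 to 1.12, and within a group every pair of libraries differed by more than sampling noise (chi-square of 16.8 to 43.4 per degree of freedom).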

How the data were processed

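The authors sequenced unstranded Nextera XT libraries on a HiSeq2500 and deposited raw counts per gene symbol, unfiltered (43280 rows) and filtered (17527 rows, each above 5 counts in some library), and TMM-scaled CPM, not used here. The submitters' processing notes name STAR 2.5.2a, DESeq2, edgeR and limma without roles. The annotation behind the counts is not given in the sources used here.

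The unfiltered counts were tested by DESeq2 1.42.0 in R 4.3.3 (median-of-ratios size factors, two-sided Wald test, unshrunken fold changes, default Cook's and independent filters) on 18606 rows with at least 10 counts in total, adjusted by Benjamini-Hochberg over all rows. Of the 48 genes, 3 got no adjusted p (Adam32, Adamts8 and Adamts16). Intervals are 1.96 SE on either side. With 3 libraries against 3, an exact permutation test cannot go below a two-sided p of 0.1, so none was made. Alternatives were edgeR 4.0.16, limma-voom (limma 3.58.1), other size factors and filters, a block for the replicate number, and leaving out single libraries. The fits were tested on simulated data. Lengths, coordinates and coding sequences are those of GENCODE M21 (GRCm38), matched by symbol for 48 of 48 genes, and zinc sites were read from its codons in place of the planned RefSeq proteins.

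The genes, classes, lists and tests were chosen with earlier results of these data known. Genes were named for an adjusted or unadjusted p under 0.05, for being named by the study (Mmp2, Mmp14, Mmp15), for being among the 4 highest per length of the MMPs, ADAMs or ADAMTSs, or as TIMPs, and in the lists if called. Others were named after their values were seen, to complete a class or for an annotation overlap.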

Additional observations from a re-analysis of the deposited data

How the results depend on the processing

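The number of the 48 genes called lower was 2 with DESeq2 as reported and also with TMM size factors or at least 10 counts in 3 libraries. It was 0 with edgeR's quasi-likelihood test, limma-voom or the replicate block, 1 (Timp3) without a count filter, with the authors' filtered counts or with independent filtering off, and 8 with total counts as size factors (Adam8, Adam10, Adam19, Adam28, Adamts3, Mmp2, Timp2 and Timp3), which shifts the median of all rows by -0.23. Leaving out 1 library gave 0 to 4, the count being 0 without WT 1, WT 5, DKO 4 or DKO 5. The number called higher was 0 in all of these fits. Over all rows, 539 genes were called as reported, 10 with edgeR, 7 with limma-voom, 343 with the replicate block, 1472 with total counts as size factors, and 149 to 817 with 1 library left out. Negative fold changes were found for 34 to 44 of the 48 genes, the lowest without DKO 4. With total counts 4 of the 48 genes changed sign, Adam9 (-0.20), Adamts10 (-0.20), Mmp15 (-0.10) and Adamts7. With 1 library left out, 13 of the 48 changed sign in at least 1 fit. Of the genes named by rule these were Adam15 (-0.11 to 0.04), Adam9 (-0.02 to 0.10), Adamts10 (-0.01 to 0.08) and Timp1 (-0.94 to 0.09). Of 329 fold changes of the 22 named genes under the alternatives, 294 kept their direction and side of the threshold. Most of the named genes were not called as reported, so this share says little about the 2 calls. A call was lost 18 times, each time for Timp3 or Adam8. The cause of these changes was not tested.

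Same-numbered libraries did not deviate together from their group means (correlations of -0.133, -0.0244 and -0.259 over 11489 rows). With 3 libraries in a group, these values cannot show whether the numbers stand for pairs. The main fit used no pairing. No library correlated best with the library of its own number in the other group. The highest correlations were 0.446 for WT 5 with DKO 1 and 0.444 for WT 4 with DKO 5. Genes with a mean under 50 normalized counts had SEs of 0.36 or more, which limits what can be seen in Adam8, Mmp9 and the scarce ADAMTSs.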
